A study of Mus musculus with 6 samples.

Results

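The members of this gene group are 4 long-chain acyl-CoA synthetases (Acsl1, Acsl3, Acsl4 and Acsl5), 4 lysophospholipid acyltransferases (Lpcat1, Lpcat2, Lpcat3 and Mboat7) and 2 genes of the phospholipase A2 family (Pla2g6 and Pla2g12b), chosen by symbol from 29543 rows of a table of gene FPKM (reads scaled by gene length and library size). All 10 members were found, each on 1 row. RNA came from mouse liver, with 3 libraries after a laparotomy followed by hepatic ischemia and reperfusion (IR), in which the blood supply is cut off and then restored, and 3 after a laparotomy with no such intervention (Sham). The sources used here give neither the durations of ischemia and reperfusion nor the strain, age or sex of the animals. Nothing in the labels ties a library to a single animal, so that p-values reflect how far libraries of a group differ, which may in part be technical. The series title names ferroptosis, a death of cells through peroxidised membrane lipids, as the process under study.

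Long-chain acyl-CoA synthetases join a free fatty acid to coenzyme A, the step that commits it to oxidation, triglyceride synthesis or membrane lipids. Phospholipids are then remodelled in the Lands cycle, in which a phospholipase A2 removes a fatty acid and a lysophospholipid acyltransferase puts another in its place. ACSL4, which prefers arachidonic and adrenic acid, and LPCAT3, which inserts polyunsaturated acyl chains into lysophospholipids, are known for supplying the phospholipids that are peroxidised in ferroptosis.

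In IR liver, Acsl4 was the 1 member that rose, 1.60-fold, while 7 of the 8 members that could be tested fell. Among the tested members, Acsl1, the highest of the 4 synthetases in Sham liver, and Lpcat3, the highest of the 4 acyltransferases, fell the most, to levels 2.80-fold and 2.33-fold lower. Acsl4 thus made up 20.3% ± 1.21 of the FPKM summed over the family in IR libraries and 7.09% ± 0.495 in Sham libraries (SD, n = 3 each). All 8 tested members passed limma's test (adjusted p under 0.05), in a comparison in which 24.3% of all 10316 tested genes were called higher and 53.8% were called lower, and the median log2 fold change was -0.53 over the members and -0.23 over all tested genes. The other 2 members, Lpcat1 and Lpcat2, had a mean FPKM under the limit of 1 and were not tested. The groups did not overlap for any of the 8 tested members, 1 higher and 7 lower in IR, as was the case for 80.6% of all tested genes (25.4% higher and 55.2% lower). Lpcat1 and Lpcat2 were also lower in all IR than in all Sham libraries, but no such share was counted for genes under the limit.

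**Figure D1:**
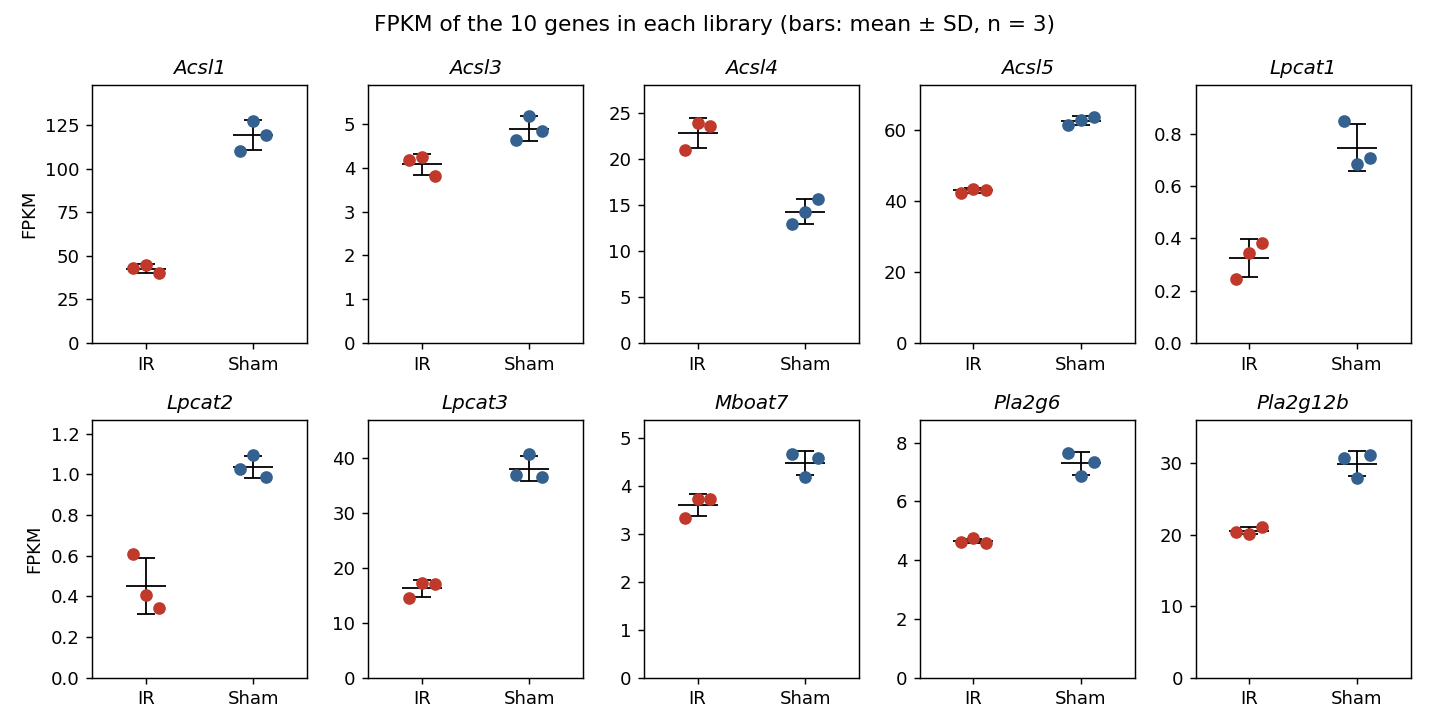
FPKM of each member (vertical axes, each starting at 0) in the 3 IR libraries (red) and the 3 Sham libraries (blue), with bars for the mean ± SD. The IR points lie above the Sham points for Acsl4, with means of 22.8 and 14.3 FPKM, and below them for the other members.

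Log2 fold changes are differences of log2(FPKM + 1), IR minus Sham, from a limma fit over all genes that averaged 1 FPKM or more, with Benjamini-Hochberg adjustment. This scale understates the change of low genes. The median of all genes was itself -0.23 under the deposited scaling. A scaling by median-of-ratios size factors, which moves that median to 0.0027, was therefore set beside it, and 76.3% of genes were then called, 38.2% higher and 38.1% lower. Under it 1 member was called higher and 5 lower. Libraries held 54042831 to 68922517 reads in IR and 53622229 to 71752584 reads in Sham, rebuilt from the steps of the values.

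The synthetases differed widely in level, with Acsl1 and Acsl5 the highest members in both groups and Acsl3 far below them. Acsl1, which in liver sits on mitochondria and the endoplasmic reticulum and feeds fatty acids into oxidation and triglyceride synthesis, is the gene ENSMUSG00000018796 (mm10 chromosome 8, 46471037 to 46536051, plus strand, protein coding). It had 43.3, 44.7 and 39.9 FPKM in IR libraries, against 110.5, 127.7 and 119.7 FPKM in Sham libraries. Every IR library was far below the lowest Sham library, and the means were 42.6 ± 2.46 and 119.3 ± 8.62 FPKM (SD, n = 3 each). It changed by -1.46 on the log2 scale (SE 0.0672, limma adjusted p = 7.52e-07), and 3.8% of all tested genes had a lower one. It was -1.16 under median-of-ratios scaling (limma adjusted p = 5.64e-06).

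Acsl4 (ENSMUSG00000031278, mm10 chromosome X, 142317993 to 142390535, minus strand, protein coding) had 21.0, 23.9 and 23.6 FPKM in IR libraries, against 12.9, 14.2 and 15.6 FPKM in Sham libraries. All IR libraries were above all Sham libraries, with means of 22.8 ± 1.61 and 14.3 ± 1.35 FPKM (SD, n = 3 each). The difference on the log2 scale was 0.64 (SE 0.0792, limma adjusted p = 0.000151), and 10.7% of all tested genes had a higher one. Under median-of-ratios scaling it was 0.93 (limma adjusted p = 1.23e-05).

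Acsl5, a synthetase of mitochondria and endoplasmic reticulum that is abundant in liver and intestine (ENSMUSG00000024981, mm10 chromosome 19, 55251938 to 55297720, plus strand), was the steadiest of the abundant members within each group. Its level was 42.3, 43.5 and 43.3 FPKM in IR libraries, against 61.5, 62.8 and 63.9 FPKM in Sham libraries. The groups were thus well apart, and the difference was -0.53 on the log2 scale (SE 0.0398, limma adjusted p = 9.18e-06), against -0.24 under median-of-ratios scaling (adjusted p = 0.0013). Under the deposited scaling, 29.6% of all tested genes had a lower log2 fold change than Acsl5. Acsl3, found on the endoplasmic reticulum and lipid droplets (ENSMUSG00000032883, mm10 chromosome 1, 78657825 to 78707743, plus strand), had 4.18, 4.25 and 3.81 FPKM in IR libraries, against 4.63, 5.19 and 4.85 FPKM in Sham libraries. The groups did not overlap but lay close together, with a log2 fold change of -0.21 (SE 0.0588, limma adjusted p = 0.0112), near the median of all genes. Under median-of-ratios scaling it had the opposite sign and did not pass (0.034, adjusted p = 0.669), and quantile normalization gave -0.034 (limma adjusted p = 0.648).

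The summed FPKM of the family, with the brain-enriched isoform Acsl6 included, was 112.6 ± 3.3 in IR and 201.2 ± 10.5 in Sham libraries (SD, n = 3 each). Acsl6 made up at most 0.00251% of it in an IR library and 0.0016% in a Sham library. Acsl1 made up 39.1%, 38.4% and 36.1% of the sum in IR libraries, against 58.3%, 60.8% and 58.7% in Sham libraries. Acsl4 made up 18.9%, 20.6% and 21.3% in IR libraries, against 6.82%, 6.78% and 7.66% in Sham libraries. The shares of Acsl1 and Acsl4 thus moved in opposite directions, by -21.4 and 13.2 percentage points, without overlap between the groups. Acsl5 made up 38.2% ± 0.888 in IR and 31.2% ± 1.27 in Sham libraries, and Acsl3 3.63% ± 0.166 in IR and 2.43% ± 0.0498 in Sham libraries. Shares do not depend on the scaling of a library. The exact two-sided permutation p was 0.1 for each of these 4 shares, the smallest that 3 libraries against 3 allow. For Acsl4 it was fixed by the levels, since Acsl4 rose while Acsl1, Acsl3 and Acsl5 fell without overlap.

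**Figure D2:**
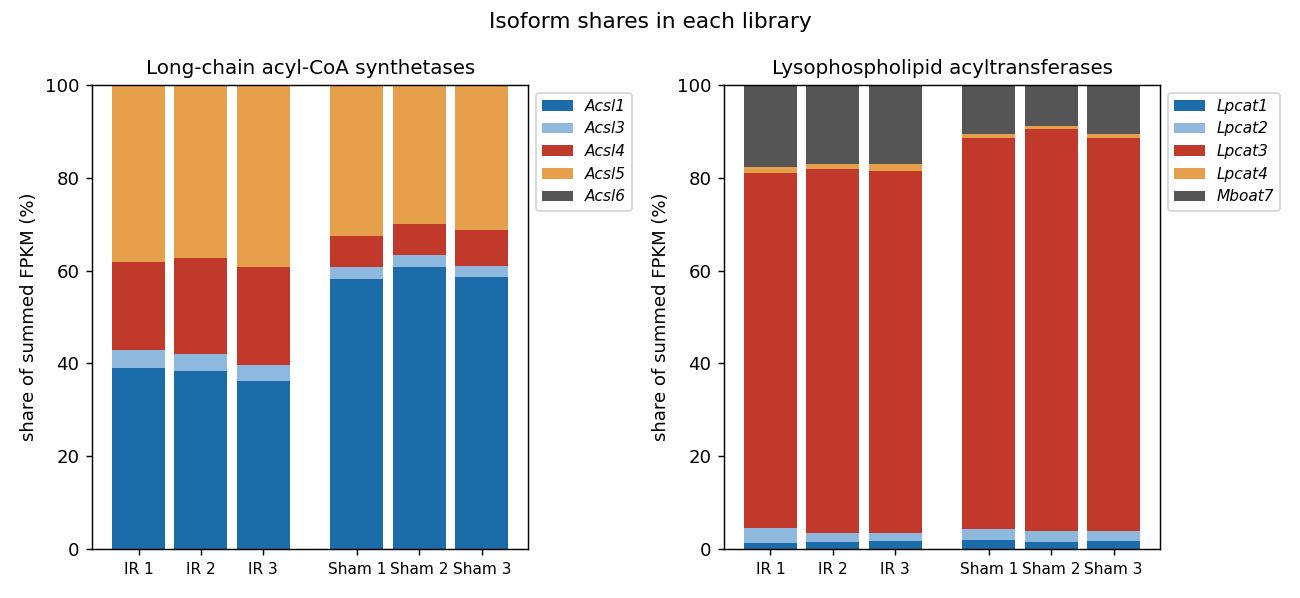
Share of summed FPKM (percent, vertical axis) held by each isoform in each library, for the Acsl family (left) and for the Lpcat family with Mboat7 (right), IR libraries left of Sham libraries. Acsl4 (red, left) averages 20.3% in IR and 7.09% in Sham, while Lpcat3 (red, right) averages 77.7% in IR and 85.1% in Sham.

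The order of the members by level, which FPKM allows since it is per length, differed at the top. In IR libraries Acsl5 and Acsl1 stood first at 43.0 and 42.6 FPKM and overlapped, followed by Acsl4, which overlapped with Pla2g12b at 20.5 FPKM. In Sham libraries Acsl1 was first, followed by Acsl5, Lpcat3, Pla2g12b and Acsl4, with no overlap between neighbours. The ratio of Acsl4 to Acsl1 was 0.484, 0.535 and 0.590 in IR libraries, against 0.117, 0.112 and 0.131 in Sham libraries. Pla2g6, Acsl3, Mboat7, Lpcat2 and Lpcat1 filled the lower places in both groups. Acsl3 and Mboat7 overlapped in Sham libraries and Lpcat2 and Lpcat1 in IR libraries.

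Lpcat3, the acyltransferase that prefers phosphatidylcholine precursors and polyunsaturated acyl-CoA and is a known target of the liver X receptors, dominated the second family (ENSMUSG00000004270, mm10 chromosome 6, 124663027 to 124704418, plus strand, protein coding). It had 14.5, 17.3 and 17.1 FPKM in IR libraries, against 36.9, 40.6 and 36.5 FPKM in Sham libraries. No IR library came near the Sham libraries, and the means were 16.3 ± 1.54 and 38.0 ± 2.23 FPKM (SD, n = 3 each). Lpcat3 changed by -1.18 on the log2 scale (SE 0.0763, limma adjusted p = 4.29e-06), and 7.09% of all tested genes had a lower one. Under median-of-ratios scaling it was -0.89 (limma adjusted p = 1.51e-05). Acsl4 and Lpcat3 therefore changed in opposite directions. The ratio of Acsl4 to Lpcat3 was 1.44, 1.38 and 1.38 in IR libraries, against 0.350, 0.351 and 0.428 in Sham libraries. With Acsl4 higher and Lpcat3 lower in every IR library, this ratio had to separate the groups. Its exact two-sided permutation p of 0.1 was thus fixed by the levels and is no further test.

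The promoters of Acsl1, Acsl4 and Lpcat3, whose log2(FPKM + 1) differed most among the tested members, are shown with that of Pla2g12b, since they hold different sequence elements. Each runs from 250 bases before to 50 bases after a transcription start in RefSeq (GRCm38.p6), 5′ to 3′ on the gene's strand. Capitals mark matches on either strand to 7 motifs. These were the GC box (GGGCGG), the CCAAT box (CCAAT), the TATA box (TATAAA), the nuclear receptor half-site (AGGTCA), the AP-1 site (TGANTCA), the cyclic AMP response element (TGACGTCA) and an HNF4 site (CAAAGTCCA), and overlapping matches were each counted. Only the GC box and the CCAAT box matched in these 4 windows.
Acsl1, chr8:46470787-46471086, plus strand: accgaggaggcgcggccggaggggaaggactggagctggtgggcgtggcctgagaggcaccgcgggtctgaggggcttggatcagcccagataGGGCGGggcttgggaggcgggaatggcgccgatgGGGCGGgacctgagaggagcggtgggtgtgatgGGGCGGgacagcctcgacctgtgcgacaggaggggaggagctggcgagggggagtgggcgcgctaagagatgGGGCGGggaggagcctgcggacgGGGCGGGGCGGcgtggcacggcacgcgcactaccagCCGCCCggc
Acsl4, chrX:142390486-142390785, minus strand: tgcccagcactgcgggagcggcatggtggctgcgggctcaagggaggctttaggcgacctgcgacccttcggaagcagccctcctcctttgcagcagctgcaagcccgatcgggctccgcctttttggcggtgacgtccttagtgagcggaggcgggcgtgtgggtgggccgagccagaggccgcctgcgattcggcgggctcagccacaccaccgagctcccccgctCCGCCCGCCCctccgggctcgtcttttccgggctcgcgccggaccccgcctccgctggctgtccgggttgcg
Lpcat3, chr6:124662854-124663153, plus strand: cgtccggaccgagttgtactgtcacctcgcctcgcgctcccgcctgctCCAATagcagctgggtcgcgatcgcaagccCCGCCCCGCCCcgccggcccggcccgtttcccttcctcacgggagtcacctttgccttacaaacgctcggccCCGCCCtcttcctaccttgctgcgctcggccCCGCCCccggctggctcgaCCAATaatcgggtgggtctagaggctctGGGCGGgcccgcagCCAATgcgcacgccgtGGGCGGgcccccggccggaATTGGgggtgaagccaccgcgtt
Pla2g12b, chr10:59403435-59403734, plus strand: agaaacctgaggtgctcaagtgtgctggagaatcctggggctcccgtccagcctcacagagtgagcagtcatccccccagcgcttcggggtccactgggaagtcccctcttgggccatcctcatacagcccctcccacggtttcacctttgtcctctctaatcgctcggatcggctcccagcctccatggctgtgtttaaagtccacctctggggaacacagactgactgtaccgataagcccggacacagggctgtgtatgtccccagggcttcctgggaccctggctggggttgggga
The Acsl1 window held 7 GC boxes and no CCAAT box, the Acsl4 window 2 overlapping GC boxes, and the Lpcat3 window 6 GC boxes and 4 CCAAT boxes. The Pla2g12b window held none of the 7 motifs. Of all 32851 promoter windows, 35.7% held a GC box and 37.4% a CCAAT box. These windows held 30, 33, 36 and 9 CG dinucleotides in the order printed, against a median of 7 over all windows. A second Acsl1 start in the table, farther downstream, held 4 CG dinucleotides and no GC box. All 10 members matched the table, with 11 windows, and the nuclear receptor half-site, present in 16.3% of all windows, was in none of the 11. A match or its absence within 300 bases says nothing of whether a factor binds.

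Mboat7, which places arachidonic acid on phosphatidylinositol (ENSMUSG00000035596, mm10 chromosome 7, 3677789 to 3693523, minus strand), differed little. It had 3.34, 3.73 and 3.73 FPKM in IR libraries, against 4.67, 4.19 and 4.59 FPKM in Sham libraries. The groups did not overlap, and the log2 fold change of -0.25 (SE 0.0597, limma adjusted p = 0.00528) was again near the median of all genes. The call was lost with median-of-ratios size factors (-0.011, limma adjusted p = 0.853) and with quantile normalization (-0.066, limma adjusted p = 0.26). Over the 5 acyltransferases Lpcat1 to Lpcat4 and Mboat7, the summed level was 20.9 ± 1.74 FPKM in IR and 44.6 ± 1.94 FPKM in Sham libraries (SD, n = 3 each). Lpcat3 made up 76.6%, 78.4% and 78.1% of it in IR libraries, against 84.2%, 86.6% and 84.6% in Sham libraries, while Mboat7 made up 17.6%, 16.9% and 17.1% in IR libraries, against 10.6%, 8.95% and 10.6% in Sham libraries. Both shares were apart between the groups (exact two-sided permutation p = 0.1 each), and those of Lpcat1 and Lpcat2 overlapped. The differences, -7.40 percentage points for Lpcat3 and 7.16 for Mboat7, were -12.1 and 12.5 points on reads not divided by length.

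Lpcat1, known from lung for making dipalmitoyl phosphatidylcholine of surfactant (ENSMUSG00000021608, mm10 chromosome 13, 73467197 to 73516422, plus strand), was the lowest member. Its level was 0.244, 0.345 and 0.383 FPKM in IR libraries, against 0.851, 0.683 and 0.709 FPKM in Sham libraries. Lpcat2, an enzyme of inflammatory cells that makes platelet-activating factor (ENSMUSG00000033192, mm10 chromosome 8, 92855339 to 92919279, plus strand), had 0.607, 0.407 and 0.344 FPKM in IR libraries, against 1.03, 1.09 and 0.985 FPKM in Sham libraries. All IR libraries were below all Sham libraries for both genes, and the ratio of means, IR over Sham, was 0.434 for Lpcat1 and 0.437 for Lpcat2. These levels rest on 65 to 263 reads per library for Lpcat1 and 63 to 266 for Lpcat2. In a fit with no filter on low values, where 44.5% of 27520 genes were called and 32.1% were called lower, Lpcat1 was at -0.40 (limma adjusted p = 0.00334) and Lpcat2 at -0.49 (limma adjusted p = 0.00339).

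The phospholipase genes fell by similar amounts, and 28.7% (Pla2g6) and 30.5% (Pla2g12b) of all tested genes had a lower log2 fold change. Pla2g6, a calcium-independent phospholipase A2 that releases fatty acids from membrane phospholipids (ENSMUSG00000042632, mm10 chromosome 15, 79286228 to 79328390, minus strand), had 4.62, 4.74 and 4.6 FPKM in IR libraries, against 7.65, 6.87 and 7.36 FPKM in Sham libraries. The IR libraries were nearly alike and all below the Sham libraries. On the log2 scale the difference was -0.55 (SE 0.0513, limma adjusted p = 3.07e-05), against -0.29 under median-of-ratios scaling. Pla2g12b, a secreted member of the family that lacks the catalytic histidine and is needed for the secretion of lipid-rich lipoproteins (ENSMUSG00000009646, mm10 chromosome 10, 59403660 to 59421976, plus strand), had 20.4, 20.1 and 21.1 FPKM in IR libraries, against 30.7, 27.9 and 31.1 FPKM in Sham libraries. The groups were apart, and the difference was -0.52 on the log2 scale (SE 0.0537, limma adjusted p = 5.62e-05), against -0.23 under median-of-ratios scaling (adjusted p = 0.00275).

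**Figure D3:**
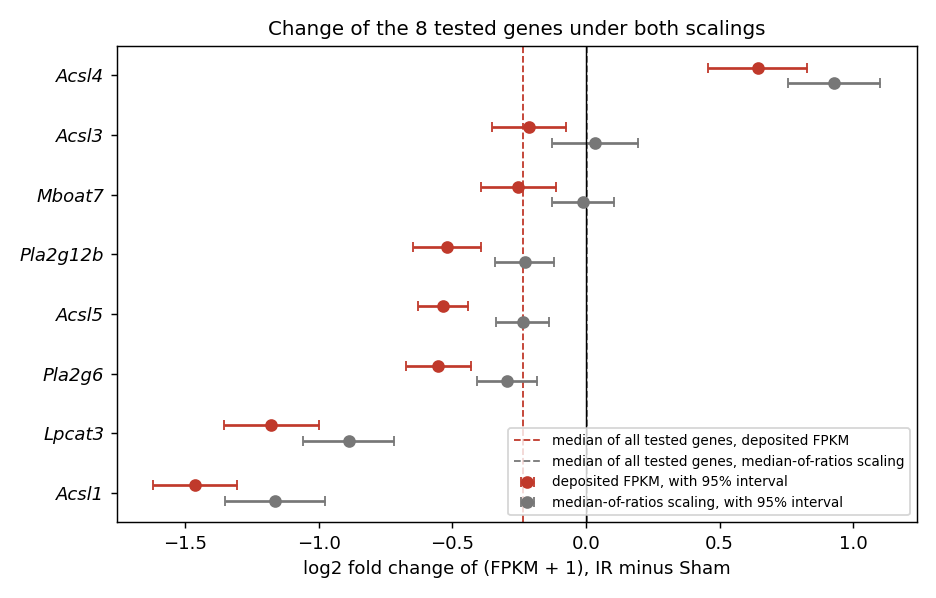
Log2 fold change of FPKM + 1, IR minus Sham (horizontal axis), of the 8 tested members under the deposited scaling (red) and median-of-ratios scaling (grey), with 95% intervals from limma and dashed lines at the median of all tested genes. Acsl3 and Mboat7 lie on the median under both scalings, Acsl4 above it, and the other 5 below it.

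Exons of some members overlap those of other genes, and the handling of strand is not given in the sources used here, so that shared reads cannot be told apart. Emg1, on the opposite strand, covers 10.2% of the Lpcat3 exon bases and had means of 5.62 FPKM in IR and 6.60 FPKM in Sham libraries. Zdhhc6 covers 8.31% of those of Acsl5, at 5.80 FPKM in IR and 8.28 FPKM in Sham libraries, and Tsen34 covers 3.32% of those of Mboat7, at 4.48 FPKM in IR and 8.37 FPKM in Sham libraries. Utp14b shares 5.6% of the exon bases of Acsl3 on the same strand and averaged 0.427 FPKM in IR and 0.709 FPKM in Sham libraries. Gm45244 and Gm45472, which overlap Acsl1 and Lpcat2, averaged 0.0122 and 0.00815 FPKM in IR and 0.112 and 0.0157 FPKM in Sham libraries. FPKM divides by the length of all annotated exons, so that levels set between genes depend on which isoforms the liver uses.

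Other genes of the same pathways were counted from lists. Of all tested genes, 53.8% were called lower and 24.3% higher, or 38.1% and 38.2% under median-of-ratios scaling. The lipid lists closest to the first share were lipid oxygenation (55.6% lower), lipoprotein assembly (61.5%) and phospholipid synthesis (61.9%). Among the other acyl-CoA synthetases, all 11 tested of 18 listed in the table fell, with a median log2 fold change of -0.75, and 9 of them were also called lower under median-of-ratios scaling. Acss3, counted among the 11, reached the limit of 1 FPKM only through Sham libraries and so had to differ. Acsm5, a medium-chain synthetase, had 8.55, 9.81 and 8.83 FPKM in IR libraries, against 42.2, 42.4 and 41.0 FPKM in Sham libraries (log2 fold change -2.09). Acss2, the cytosolic acetyl-CoA synthetase (-1.12), the medium-chain gene Acsm1 (-0.83) and the mitochondrial malonyl-CoA synthetase Acsf3 (-0.80) also fell. None of the other tested synthetases rose as Acsl4 did, under either scaling. Acsm2, too low to be tested, was higher in all IR libraries (mean 0.206 FPKM) than in all Sham libraries (mean 0.111 FPKM).

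Of 10 tested genes among the other acyltransferases, 7 fell, 2 rose and 1 did not pass, with a median of -0.47. With median-of-ratios size factors 6 were called lower and 3 higher, with a median of -0.19. Agpat5, counted among the 7, reached the limit of 1 FPKM only through Sham libraries and so had to differ. Lpgat1, a lysophospholipid acyltransferase of the endoplasmic reticulum, rose, with 75.9, 84.5 and 88.9 FPKM in IR libraries, against 24.5, 28.1 and 26.1 FPKM in Sham libraries. On the log2 scale the difference was 1.63 (SE 0.0735, limma adjusted p = 7.03e-07), and its level was above the sum of the Lpcat family in every IR library. Gpam, the mitochondrial glycerol-phosphate acyltransferase (-1.55), Agpat2, which makes phosphatidic acid (-1.43), and Taz, the tafazzin gene that remodels cardiolipin (-1.36), fell. Taz was at 1.52, 1.55 and 1.60 FPKM in IR libraries, against 5.86, 5.17 and 5.62 FPKM in Sham libraries.

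Of 18 tested genes among the other phospholipases, 12 fell, 3 rose and 3 did not pass, with a median of -0.42, against 8 lower and 6 higher with median-of-ratios size factors. Plaat3, among the 12, reached the limit of 1 FPKM only through Sham libraries. Ddhd1, among those that rose, reached it only through IR libraries, and both thus had to differ. Lipg, the endothelial lipase that cleaves phospholipids of lipoproteins (-1.39), the phospholipase Ddhd2 (-1.12), the lysophospholipase Pnpla7 (-0.79) and Lypla1 (-0.72) fell. Of 21 tested genes of phospholipid synthesis, 13 fell and 5 rose, with a median of -0.23, that of all genes, against 8 lower and 7 higher with median-of-ratios size factors. Chka, the choline kinase that starts phosphatidylcholine synthesis, rose 11.5-fold, with 19.7, 15.6 and 14.4 FPKM in IR libraries, against 1.49, 1.46 and 1.35 FPKM in Sham libraries (log2 fold change 2.84, SE 0.105, limma adjusted p = 2.80e-07). Pgs1 of cardiolipin synthesis rose (1.03), and Pcyt2 of the phosphatidylethanolamine route (-1.14) and the phosphatidylserine synthase Ptdss2 (-1.10) fell. Ptdss2 reached the limit of 1 FPKM only through Sham libraries and so had to differ.

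Some desaturases and elongases make the polyunsaturated acids that Acsl4 and Lpcat3 use, and others in the same list act on other chains. Of 16 tested desaturases, elongases and their partners, 11 fell and 2 rose, with a median of -0.57, against 9 lower and 5 higher with median-of-ratios size factors. Fads2, the first desaturase of the polyunsaturated pathway, had 124.2, 120.4 and 120.5 FPKM in IR libraries, against 347, 342 and 356 FPKM in Sham libraries (-1.51). Fads3 (-2.01) and Fads6 (-1.56) of the list also fell, and Elovl3, an elongase of saturated and monounsaturated chains, rose (2.26). Of 9 tested genes of lipid oxygenation, 5 fell and 2 rose, with a median of -0.43, against 5 lower and 4 higher with those size factors. Cyb5r1 (-1.05), the cyclooxygenase Ptgs1 (-0.91) and the epoxide hydrolase Ephx1 (-0.64) fell, and Alox5ap, which assists leukotriene synthesis, rose to 1.56, 1.40 and 1.64 FPKM in IR libraries, against 0.665, 0.451 and 0.854 FPKM in Sham libraries (0.62). Elovl3 and Alox5ap reached the limit of 1 FPKM only through IR libraries, and Cyb5r1 only through Sham libraries. These genes, counted above, thus had to differ.

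Targets of the receptors known to act on Acsl1 and Lpcat3 were also counted. Of 17 tested genes of PPAR alpha and its targets, 14 fell and 1 rose, with a median of -0.91, and Ehhadh (-1.73), Acot1 (-1.53), Cpt1a (-1.51) and Cpt2 (-1.48) fell the most. With median-of-ratios size factors 13 of these genes were called lower and 2 higher, with a median of -0.66. Of 12 tested genes of the liver X receptors and their targets, 8 fell and 2 rose, with a median of -0.69, and the counts were the same under median-of-ratios scaling. The receptor gene Nr1h3 had 15.0, 15.1 and 14.9 FPKM in IR libraries, against 32.1, 28.6 and 29.8 FPKM in Sham libraries (-0.96), and Lpl (-1.38) and Pltp (-1.08) fell. The other receptor gene, Nr1h2, rose, with 12.3, 12.6 and 13.2 FPKM in IR libraries, against 11.1, 10.3 and 9.66 FPKM in Sham libraries (0.27). Abca1, the cholesterol exporter that is a classical target of the same receptors, rose, with 72.6, 70.8 and 72.5 FPKM in IR libraries, against 11.9, 14.4 and 13.8 FPKM in Sham libraries (log2 fold change 2.35). Lpcat3 and Abca1 thus changed in opposite directions. Of 13 tested genes of lipoprotein assembly, the process that Pla2g12b serves, 8 fell and 2 rose, with a median of -0.22, against 4 and 4 under median-of-ratios scaling. Tm6sf2 (-1.25), Cideb (-1.06), Sar1b (-0.83) and the microsomal transfer protein gene Mttp (-0.74) fell.

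**Figure D4:**
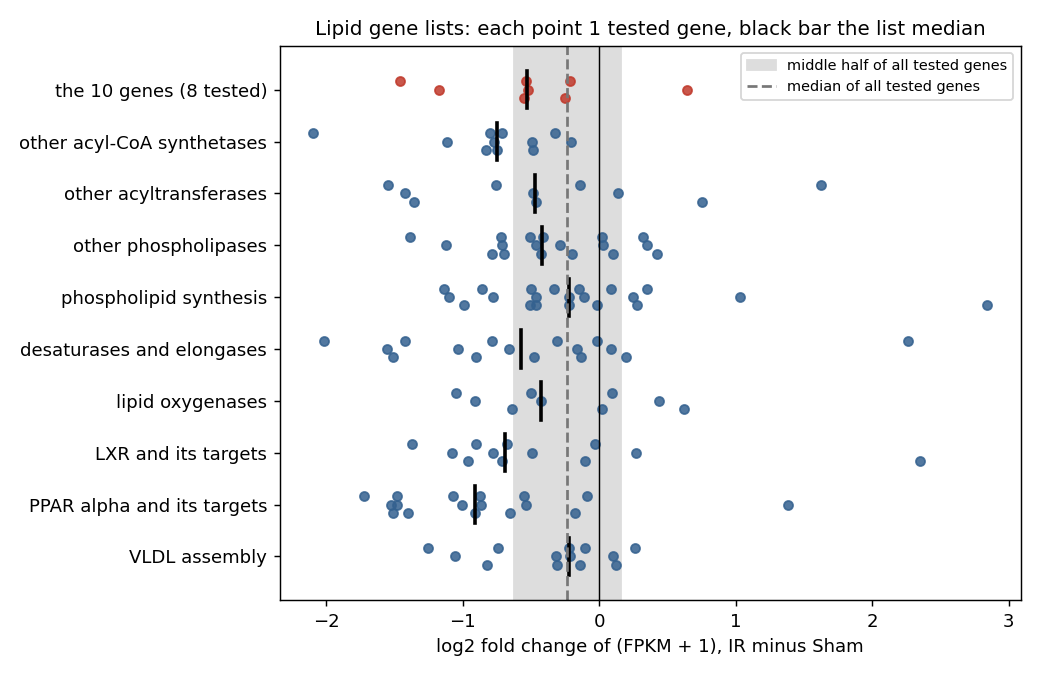
Log2 fold change of FPKM + 1, IR minus Sham (horizontal axis), of each tested gene in the members (red) and in 9 lists of lipid genes (blue), with black bars at list medians, a dashed line at the median of all tested genes (-0.23) and a grey band between their lower and upper quartiles. The list of PPAR alpha and its targets has its median at -0.91, and Chka (2.84), Abca1 (2.35) and Elovl3 (2.26) lie farthest to the right. Elovl3 reached the limit for testing only through IR libraries.

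The libraries are of whole tissue, in which fewer cells of a type and less RNA per cell cannot be told apart. All 9 hepatocyte markers in the table were present, with summed levels of 63401 to 66145 FPKM in IR and 72390 to 74740 FPKM in Sham libraries, and 6 of them fell while 1, the acute phase gene Fgb, rose; with median-of-ratios size factors none was called lower and 2 were called higher. No marker of any list was at 0 in all libraries. Of 10 markers of Kupffer cells and macrophages, 8 fell and 1 rose, and their sum was 167 to 205 FPKM in IR and 312 to 318 FPKM in Sham libraries. Of 10 neutrophil markers 8 were tested and called higher, of which Retnlg, Mmp8 and Cxcr2 reached the limit of 1 FPKM only through IR libraries and so had to differ. The sum over all 10 was 830 to 932 FPKM in IR and 18.0 to 19.3 FPKM in Sham libraries. Without Lcn2, which hepatocytes also make, the 9 others summed to 151 to 193 FPKM in IR and 10.9 to 12.4 FPKM in Sham libraries. Of the sinusoidal endothelial markers 8 of 10 tested fell and 1, Lyve1, rose. Their sums were 39.5 to 81.1 FPKM in IR and 65.1 to 73.5 FPKM in Sham libraries. Lyve1 averaged 34.9 of a mean sum of 59.6 FPKM in IR and 10.8 of 69.9 FPKM in Sham libraries. The 8 that fell were each lower in all IR than in all Sham libraries, so that the overlap of the sums rests on Lyve1. Of the stellate markers 7 of 9 fell, with sums of 26.4 to 38.2 FPKM in IR and 86.5 to 93.8 FPKM in Sham libraries. With median-of-ratios size factors 6 Kupffer cell and macrophage markers, 7 endothelial markers and 7 stellate markers were called lower. In each of these lists 1 marker was then called higher. The 8 lymphocyte markers, none of which reached the limit for testing, summed to 1.64 to 2.60 FPKM in IR and 3.99 to 5.32 FPKM in Sham libraries. Kdr among the endothelial markers and Reln and Col1a1 among the stellate markers, all called lower, reached the limit only through Sham libraries. In the same way Acss3, Agpat5, Plaat3, Ptdss2 and Cyb5r1 of the lipid lists reached it only through Sham libraries, and Ddhd1, Elovl3 and Alox5ap only through IR libraries. The part of these cell types in the levels of Acsl4, Lpcat2 and the other members was not tested.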

How the data were processed

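Liver RNA of 6 mouse libraries, 3 IR and 3 Sham, was sequenced, and grouping followed the sample titles. What the authors deposited is a single FPKM table, scaled by gene length and library reads. Per the submitters' processing notes the genome build was mm10, while the sources used here name no aligner, counter, annotation or strand setting. Exon lengths and positions came from GENCODE M21, which held 28977 of 29543 gene IDs. FPKM multiplied by exon length and a library total came out whole within 0.05 in all libraries for 26610 of 27072 genes (98.3%), which gave the depths. Intervals and SE cover the spread between libraries.

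The test was limma 3.58.1 (R 4.3.3; eBayes, trend, two-sided) on log2(FPKM + 1) of genes that averaged 1 FPKM or more, with Benjamini-Hochberg adjustment over 10316 genes and a threshold of 0.05. Shares and ratios were compared by exact two-sided permutation tests in scipy 1.17.1 under Python 3.11.15. The fit was tested on simulated reads in which most genes were unchanged. Such reads cannot show how the fit handles a shift of the median of all genes. The members and lists were chosen with earlier results of these data known. All members are named, with up to 4 genes per list of largest change past the threshold. A few others were named after their values were seen (Acsl6 for the family sum, Acsm2, the receptor gene Nr1h2, the genes that overlap members). Some genes that reached the limit of 1 FPKM only through a single group were also named on that ground. The alternatives were other pseudocounts, filters, scalings and fits, limma voom on rebuilt reads, a block for the replicate number, and omission of each library in turn. The list of bile duct markers is not reported here.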

Additional observations from a re-analysis of the deposited data

How the results depend on the processing

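Of the 8 tested members, 6 kept their direction and stayed past the threshold in all 16 alternative fits, with Acsl4 between 0.58 and 0.93, Acsl1 between -1.52 and -1.16 and Lpcat3 between -1.24 and -0.89 on the log2 scale. Acsl3 was 0.034 under median-of-ratios scaling, of opposite sign, and Mboat7 -0.011. Both were lost there and under quantile normalization, which left 5 members lower in place of 7; the first scaling moves the median of all genes to 0.0027. Neither gene reaches the stricter limit of 5 FPKM. With no filter on low values all 10 members passed. Of all genes, 12245 passed with no filter (8843 of them lower), 3932 with a mean FPKM of at least 5 (1359 higher and 2573 lower), and 3939 were higher under median-of-ratios scaling, against 8053 in the reported fit (2505 higher and 5548 lower). Leaving out 1 library at a time gave 7590 to 7927 genes, with 2335 to 2479 higher, and the 8 members in each case. On reads not divided by length, the shares moved by -19.5 (Acsl1), 10.8 (Acsl4), -12.1 (Lpcat3) and 12.5 (Mboat7) percentage points. Leaving out 1 library moved the Lpcat2 share between -0.61 and 0.21 points, above 0 without IR library 2 (0.071) or IR library 3 (0.21) and against -0.11 with all libraries.

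With the replicate number as a block, 8 members and 7964 genes passed, and no member's call changed. Deviations of libraries that share a number correlated at -0.0389, 0.0117 and -0.104, so that the number was not taken to pair them. Lpcat1 and Lpcat2 rest on 63 to 266 reads a library, the fewest among the members.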
